A study of Mus musculus and synthetic construct with 32 samples.

Results

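RNA Bind-N-Seq asks which short sequences a protein picks out of a random RNA pool, and the values described here are those of the 9-mers in which the central A is followed by G. They were chosen from the letters alone, as all 9-mers with A at character 5 and G at character 6, counted from 1 at the 5′ end. The authors' deposited table holds 9-mers with A in the middle only, 16384 for each of the 4 bases that can follow it. The members are the 16384 with G, and the 3 other groups, with A, C or T after the central A, have the same size.

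The study examined YTHDC2 in the mouse germline, and of its 32 samples the 24 of mouse testis and ovary are not used here. The binding assay had 8 libraries. In 4 of them the YTH domain of human YTHDC2, carried as a 6xHis-SUMO fusion on Ni-NTA beads, was mixed with synthetic RNAs, and in the other 4 the same RNAs met the beads alone. Each RNA was 21 nt long, with m6A at its centre and 10 random bases on either side, so the bead controls carried the modification too and no unmethylated pool is among the labelled samples. The protein was the isolated domain, not the whole helicase. The letters are those of the table, with T standing for U of the RNA, and the sources used here do not say whether 9-mers were counted at the centre of the RNA only or wherever an A stood in the middle.

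m6A, N6-methyladenosine, is the most common internal mark of messenger RNA. The enzymes that write it act mainly on an A that is preceded by a purine and followed by C, so an A followed by G lies outside that consensus. YTH domains hold the methyl group in a cage of aromatic side chains and also touch the neighbouring bases. YTHDC2 is needed for germ cells to enter and pass through meiosis.

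The results turn on a small number of sequences, which are shown here with the central A and the G after it in capitals. The highest member and its nearest relatives differ at characters 1 and 2 only:
highest member: acgtAGcgc
second highest: gcgtAGcgc
lowest of the 16 relatives: gtgtAGcgc
The same 9-mer with another base after the central A is shown for comparison:
A in place of G: acgtAAcgc
C in place of G: acgtACcgc
T in place of G: acgtATcgc
High members outside this group are given for contrast, the first with the upstream bases TCTT and the second with GCG after the G:
highest with TCTT upstream: tcttAGcag
highest with GCG downstream: gtggAGgcg
The lowest members mark the other end of the range:
lowest member: gtgcAGttc
second lowest: tccgAGgat

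The value of each 9-mer is the fold in the authors' deposited table, a linear ratio of the YTH domain over the bead control. A fold of 1 means equal values in both. How libraries were scaled is not given, so it need not mean equal abundance. The table gives 1 fold and 1 unadjusted p-value per 9-mer. It also has 8 columns of values per library, but their names match no sample label and they were not used, so no SD is given beside a fold. The deposited p-values take 9 values, each equal within 1e-09 to one that an exact two-sided rank test of 4 against 4 libraries can give. On that reading the smallest, 0.0286, means that the 4 libraries of one group all lay above the 4 of the other. Adjusted by Benjamini-Hochberg over every 9-mer of the table this smallest exact p becomes 0.0443 and the next, 0.0571, becomes 0.0791, so a 9-mer was called at adjusted p below 0.05 only where its p was the smallest. The median fold of all 9-mers was 0.774, a shift of -0.37 on the log2 scale, so folds are also given relative to that median. The labels do not say that the libraries came from separate binding reactions, so the p-values may measure technical spread only.

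Most 9-mers with G after the central A had lower values with the YTH domain than with beads alone. Of the 16384, 10907 (66.6%) were called lower, 881 (5.38%) were called higher and 4596 were not called. With the direction taken relative to the median of all 9-mers instead of 1, 10275 of the called members were lower and 1513 higher. The deposited p-values do not test that direction, since they compare the YTH domain with beads. Called members with folds between that median and 1 count as higher here, although their values were lower with the YTH domain than with beads. Over all 9-mers 47.2% were called lower and 17.3% higher. The median fold of the members was 0.676, with quartiles of 0.586 and 0.816, and relative to the median of all 9-mers it was 0.873. Set against that overall median instead of 1, 30.7% of the members lay above it. The members reached from 0.388 to 84.6, and 61.5% of them had folds above 0.5 and up to 0.75.

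Beside the other groups, the members lay near those with A after the central A and below those with C or T. The median fold was 0.646 with A, 0.933 with T and 1.06 with C in the same place. Called higher were 825 9-mers with A, 4102 with T and 5499 with C, against the 881 with G. When each member was set beside the 3 9-mers that differ from it at character 6 alone, the one with G was lower than the one with C in 86.0% of the 16384 contexts, with a median ratio of 0.660. It was lower than the one with T in 80.7%, with a median ratio of 0.737. Against A the order leaned the other way, with G the lower in 40.5% and a median ratio of 1.05. G gave the lowest fold of the 4 bases in 34.5% of contexts and the highest in 7.44%. These shares compare 9-mers of the same libraries and were not tested over libraries.

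The base right after the AG pair went with the largest difference of any single position. With T at character 7 the median fold was 0.585, and only 0.781% of these 4096 members lay above 1. It was 0.681 with G, 0.719 with A and 0.752 with C, and 9.84% of the members with C were called higher, against 0.293% of those with T. The highest of the 4 medians at character 7 was 1.29 times the lowest. The same ratio was 1.15 at character 3, 1.14 at character 9, 1.13 at character 8, 1.11 at character 4 and 1.09 at both characters 1 and 2. In the other groups character 7 ordered the bases differently. With C after the central A the medians were 1.43 for A, 1.18 for C, 0.915 for G and 0.865 for T at character 7, and with T they were 1.29, 0.861, 1.04 and 0.716. T stood lowest at this position in each of the 4 groups, although with A after the central A the medians for T and C were 0.625 each.

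On the 5′ side, purines at character 3 and any base but C at character 4 went with the higher folds. Character 3 gave medians of 0.721 for A, 0.705 for G, 0.651 for C and 0.627 for T. Directly before the central A the medians were 0.707 for A, 0.687 for T, 0.678 for G and 0.636 for C. The highest folds did not follow the order of these medians: T at character 4 had 136 of the 307 members with a fold above 2, G had 103, A had 37 and C had 31. For the pair of characters 3 and 4, GA had the highest median at 0.785 and TC the lowest at 0.591.

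Characters 3, 4 and 7 combined made 64 classes of 256 members, and none of them had a median above 1. GTC, with G and T before the central A and C after the AG, stood highest at 0.897, followed by GAC at 0.891 and GAA at 0.838. The 10 highest medians exceeded the median of all 9-mers. At the bottom stood TCT with 0.526, CTT with 0.541 and GCT with 0.550. T at character 7 held 13 of the 16 lowest classes and none of the 16 highest, where A and C held 7 each and G the other 2. In 8 classes no member reached a fold above 1.

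The classes differed in spread, also where medians were similar, as for GTC and GAC. GTC ran from 0.550 for acgtAGctt to 84.6 for acgtAGcgc in the authors' deposited table, and 46 of its 256 members had a fold above 2. GAC had 13 such members, with a maximum of 12.4. TCT ran only from 0.426 for aatcAGtat to 0.724 for attcAGtgt in the authors' deposited table, with 255 of its 256 members called lower. The exception was attcAGtgt, whose groups overlapped (exact p = 0.114, adjusted p = 0.146).

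The 3 bases after the AG pair, read as a unit, separated the members more than characters 3, 4 and 7 did. As a description of the log2 fold over the 16384 members, characters 7, 8 and 9 together accounted for 52.7% of the variance, the 4 bases before the central A for 14.5%, and characters 3, 4 and 7 for 21.9%. Single positions summed to 25.5% of the variance, of which character 7 gave 12.8%. Pairs of positions added 31.4%, led by 7 with 8 at 9.05%, 8 with 9 at 8.74% and 7 with 9 at 5.36%. The remaining 43.1% lay in combinations of more than 2 positions and in the noise of single folds. The 52.7% for characters 7, 8 and 9 together exceeds the sum of their single and pair terms. Part of the 43.1% is therefore the combination of these 3 characters. The rest was not divided into combinations and noise.

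Among the 64 classes by characters 7 to 9, 4 had medians above 1, and both highest ones were made of G and C alone. The other endings of G and C alone had medians below 1, from 0.814 for CCG to 0.582 for GGC. CGC had a median fold of 2.25 with quartiles of 1.54 and 3.40, and 225 of its 256 members were called higher and 10 lower. GCG had a median of 1.52 with quartiles of 1.29 and 1.76, and 179 of 256 were called higher and 0 lower. ACG followed at 1.10, with 42 called higher and 24 lower, and AGC at 1.05, with 62 higher and 57 lower. The next, GCA, lay at 0.989. The lowest were GAT at 0.533 and GAC at 0.547, where 253 and 248 of 256 members were called lower and none had a fold above 1.

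CGC and GCG differed in shape. With GCG 98.0% lay above 1, the lowest was 0.793 for gctcAGgcg and the highest 2.62 for gtggAGgcg in the authors' deposited table. With CGC 91.8% lay above 1, but the range ran from 0.598 for gtgcAGcgc to 84.6 in the authors' deposited table. Within the GCG class the medians by the base before the central A were 1.70 for G, 1.64 for T, 1.42 for A and 1.38 for C. Within the CGC class they were 3.83 for T, 2.75 for G, 1.83 for A and 1.65 for C. Of the 10 members ending in AGCGC that were called lower, 9 had C before the central A, and the other was cgtgAGcgc at 0.695 in the authors' deposited table.

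The same endings behaved differently after another base. NNNNAGCGC had the median of 2.25 given above, while NNNNAACGC stood at 0.613, NNNNATCGC at 0.777 and NNNNACCGC at 1.19. NNNNAGGCG stood at 1.52, against 0.708 for NNNNAAGCG, 0.881 for NNNNACGCG and 1.19 for NNNNATGCG. The ending ACG showed less contrast, at 1.10 after AG, 1.14 after AA, 1.09 after AC and 0.932 after AT. For AGC the group with G was not the highest, at 1.05, against 2.83 after AT and 1.68 after AC. Whether these differences exceed the spread between libraries was not tested, since the columns of values per library were not used.

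The exceptions with high values were few and clustered. A fold above 2 was reached by 307 members (1.87%), all of them called higher, against 6.06% of all 9-mers. After division by the median of all 9-mers, 556 members exceeded 2. Above 1.5 stood 603 members (3.68%), against 12.4% of all 9-mers, and above 10 stood 19 of the 162 such 9-mers in the whole table. Of the 307, 145 (47.2%) ended in AGCGC, 29 in AGGCG and 22 in AGAGC, and 22 began with TCTT. Counting CGC or GCG downstream or TCTT upstream, 195 of the 307 were covered and 112 were not. C at character 7 was present in 206 of the 307, and T in 2. GT at characters 3 and 4 was held by 66 of the 307, from 1024 such members, against 22 from the 64 with TCTT. Among the 112 were members with GT there, such as gcgtAGcgt at 8.16 in the authors' deposited table. These groupings were picked after the folds were seen and are descriptions only.

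The 15 highest members all ended in GTAGCGC. The 16 members of the form NNGTAGCGC had a median fold of 27.0, and all 16 were called higher. In the authors' deposited table, acgtAGcgc had a fold of 84.6, gcgtAGcgc 70.1, ccgtAGcgc 56.4, aagtAGcgc 45.5 and tcgtAGcgc 43.9 (adjusted p of 0.0443 for each). The next 5, cagtAGcgc, atgtAGcgc, tagtAGcgc, cggtAGcgc and ttgtAGcgc, stood at 35.2, 29.1, 28.2, 25.8 and 21.6 there. These were the 10 highest of all members, and 15 of the 16 relatives lay at 16.4 or above. Far below them stood gtgtAGcgc at 3.95 in the authors' deposited table.

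These folds differed by the outer bases. By character 2 the medians over 4 relatives each were 63.3 for C, 31.7 for A, 21.5 for T and 18.8 for G. By character 1 they were 37.3 for A, 30.5 for C, 24.9 for T and 17.8 for G. With C at character 2 the 4 folds ran from 43.9 to 84.6 and did not overlap those with G, which ran from 16.4 to 25.8.

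In this group the high folds went with G after the central A. The group was picked for its high folds with G, so lower folds with other bases follow in part from that choice. With A in place of G the 16 folds ran from 0.571 to 1.06, with T from 0.647 to 1.02, and with C from 0.851 to 15.5. For the highest member the change G6A gave 1.06 (exact p = 0.486), G6C gave 1.04 (exact p = 1) and G6T gave 0.738 (exact p = 0.0286, adjusted 0.0443) in the authors' deposited table. Over the 16 with C the median was 1.25. The highest of those with C, cggtACcgc, stood at 15.5 in the authors' deposited table beside 25.8 for cggtAGcgc. The other relatives with G at character 2 were also high with C. There tggtACcgc stood at 6.36, gggtACcgc at 5.78 and aggtACcgc at 5.57, beside 18.9, 16.4 and 18.7 with G. Of the 33 contexts in the table where G exceeded the next highest base over 5 times, 11 belonged to the 16 of the form NNGTAGCGC. No such count is given for the other bases.

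Single substitutions of the highest member lowered its fold by different amounts at each character. At character 1 the 3 changes left folds between 43.9 and 70.1, and at character 2 between 18.7 and 45.5. At character 4 T4A gave 12.4, T4G 9.39 and T4C 8.44, and at character 3 G3A gave 6.59, G3T 4.82 and G3C 2.94 in the authors' deposited table. On the 3′ side C9T left 10.3 and C7A left 8.92, while C9G gave 1.33, C9A 1.11, C7G 1.499 and C7T 1.47 in the authors' deposited table. The changes at character 8 left 2.78 for G8A, 0.675 for G8C and 0.568 for G8T in the authors' deposited table. Of the 21 members at 1 difference from the highest, 18 were called higher, 2 lower and 1, the change C9A, was not called (exact p = 0.343).

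With more differences from the highest member the folds came down to the level of the whole group. Because that member was picked as the highest, a fall from it was fixed in advance. The median was 8.44 at 1 difference, 1.08 at 2, 0.793 at 3, 0.702 at 4 and 0.644 at 7. Above 2 stood 15 of 21 members at 1 difference, 66 of 189 at 2, 82 of 945 at 3 and 9 of 2187 at 7. These 9-mers share most of their letters, and if windows of the same RNA were counted they also share molecules, so they are not independent replicates of one another.

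Another group of high members shared the bases TCTT before the central A. Of the 256 sets of 4 upstream bases TCTT had the highest median, 1.502, and GTGG the second, 1.06, and these were the only 2 above 1. In the authors' deposited table tcttAGcag had a fold of 6.83, tcttAGcta 5.52, tcttAGaca 4.19 and tcttAGcca 4.00. Of the 64 members with TCTT, 34 were called higher and 19 lower, and the base after the AG split them. With C at character 7 all 16 were called higher, with a median of 2.84, and with A the median was 2.24. With G at character 7 none of 16 was called higher and the median was 0.684. The lowest set of upstream bases was GTGC at 0.484, where 59 of 64 members were called lower.

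T after the AG pair had almost no exceptions. Of its 4096 members 32 had a fold above 1, 12 were called higher and 2 passed 2. These were agagAGtct at 3.32 and tcttAGtag at 3.07 in the authors' deposited table, the second with the upstream TCTT. The other 10 called higher lay at or below 1.67.

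The lowest members had T or GA after the AG pair. In the authors' deposited table gtgcAGttc stood at 0.388, tccgAGgat at 0.394, tctgAGgat at 0.395, tgtgAGgat at 0.404 and ctacAGtcc at 0.404, each with the smallest exact p of 0.0286 (adjusted 0.0443). None of these 5 has A right before the central A.

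Members that hold the methylation consensus, a purine followed by AC, outside the central A differed by where it stood. With AC right after the AG pair, the fixed G is the purine. These 1024 members had a median of 0.834 and 28.4% lay above 1, against 0.676 and 12.1% of all members. Called higher were 5.37% of them, against 5.38% of all members and 17.3% of all 9-mers. By the base after this AC the medians were 1.10 for ACG, 0.969 for ACA, 0.738 for ACC and 0.677 for ACT. All 2464 members with a purine and AC anywhere had a median of 0.705. The 256 members NNNNAGGAC, in which GGAC directly follows the central A, had a median of 0.547, with 0 above 1 and 248 called lower. All 319 members that hold GGAC anywhere, which include these 256, had a median of 0.557. The 64 with GGAC right before the central A had a median of 0.647. NNNNAGGAT, which has AT in place of the last AC, stood at 0.533. An AC elsewhere was held by 4680 members with a median of 0.699, against 0.667 for the 11704 without one, and 5.17% and 5.46% of these were called higher. By where the AC began, the medians were 0.698 at character 1, 0.689 at 2, 0.697 at 3, 0.834 at 7, as above, and 0.618 at 8.

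The folds also differed by base composition. Members with no T among the 8 bases around the central A had a median of 0.809, those with 1 T 0.717, with 2 0.658, with 3 0.612 and with 4 0.583. The number of A went the other way, from 0.624 with no other A to 0.811 with 5. The share called higher fell meanwhile, from 8.82% with no other A to 2.12% with 5. With no C the median was 0.654 and 1.10% were called higher, and with 5 C these were 0.777 and 9.52%. The count of G, the fixed one included, moved the median little, between 0.666 and 0.694 from 1 to 6. The share called higher rose from 2.93% with 1 G to 10.1% with 6, against 5.38% of all members. Members with no CG pair had a median of 0.663, with 1 pair 0.703, with 2 pairs 0.880 and with 3 pairs, held by 8 members, 1.43. Without the members ending in AGCGC the values for 1, 2 and 3 pairs were 0.694, 0.808 and 1.39. Those ending in AGGCG, with a median of 1.52, each hold a CG pair and were not left out. A run of 4 or more equal bases gave 0.736 over 697 members.

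The folds of the members followed those of the same context in the other groups only loosely. Over the 16384 contexts, Spearman's rho between the fold with G and that with A after the central A was 0.45, with T 0.43 and with C 0.35. These points share libraries, base composition and 8 of 9 letters, and the values are a description. In the whole table acgtAGcgc ranked below 2 others only, cgtcATgca at 134.6 and tgttACaca at 124.0 in the authors' deposited table. Members made up 3 of the 10 highest 9-mers and 6 of the 25 highest. The 4 groups by the base after the central A have the same size, so both counts lie near an equal share. They show no excess of members at the top of the table.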

How the data were processed

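Per the labels' protocols, RNA bound to beads with or without the YTH domain was extracted, made into libraries with a small RNA kit and sequenced on an Illumina HiSeq. The submitters' processing notes name cutadapt. Its version, how 9-mers were counted, how libraries were scaled and which test was run are likewise not given in those sources. Per the file headers, the authors deposited for every 9-mer a ratio (the fold, linear, of protein against beads) and a p-value without adjustment. The table also has 8 columns of values per library, whose names match no label, and these were not used. Depth is therefore unknown here, and the planned edgeR or limma test, the class sums per library and the alternatives that need libraries were not run.

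P-values were adjusted over all 9-mers by Benjamini-Hochberg, and medians, quartiles and counts were computed in Python 3.11.15 with pandas 2.3.3, NumPy 2.4.6 and SciPy 1.17.1, after a check on simulated tables. No pseudocount or filter was applied. Variance shares are sums of squares of log2 folds computed here from the deposited ratios over the balanced set of members. Named 9-mers are the 10 highest and 5 lowest members, the extremes of the highest and lowest class by characters 3, 4 and 7, the 5 highest members called higher in classes with medians below 1, and the highest member with other bases at character 6. Others that are named, and the families by ending or by upstream bases, were chosen after their values were seen. The members and lists were chosen with earlier results of these data known.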

Additional observations from a re-analysis of the deposited data

How the results depend on the processing

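No paired analysis was possible because the names of the columns of values per library match no label, and groups were not assigned from the values themselves. For the same reason leaving out each library and other normalizations, pseudocounts, low-value filters or tests were not run. The calls rest on 1 p-value: at adjusted p below 0.01 the count is 0 both for lower and for higher, while an unadjusted p below 0.05 gives 10907 and 881. Calls of direction depend on the scale. Relative to the median of all 9-mers, 1513 of the called members lie above it, where 881 lie above 1. The p-values do not test that direction. On this scale 556 members exceed 2, not 307. The median fold becomes 0.873 for all members, 0.679 for TCT, 0.971 for C and 0.755 for T at character 7. GTC at characters 3, 4 and 7 changes side: on that scale it lies above 1, at 1.16, and as a mean of log2 folds, on the original scale, it lies at 1.26. As such a mean the values were 0.728 for all members, 0.531 for TCT, 0.837 for C and 0.596 for T. Without members that hold AC the medians were 0.667 for all, 0.881 for GTC and 0.739 for C. Without those ending in AGCGC, an alternative added after the data were seen, GTC stood at 0.877, C at 0.740 and 162 members exceeded 2. The order GTC over TCT and C over T held in each of these. Division by the median of all 9-mers cannot change an order. Leaving out the ending AGCGC touches GTC and C but not TCT or T.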
